A study of Mus musculus with 16 samples.

Results

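Complement genes were followed through the cells of mouse mammary tumours to see how the pathway was divided between macrophages and fibroblasts. The 9 genes, C1qa, C1qb, C1qc, C1s1, Serping1, C4b, C3, Cfb and C3ar1, were listed by name, and all 9 were present among the 19822 genes kept. Tumours came from 2 untreated models, in which Cre under the Wap promoter, active in mammary epithelium, deletes Brca1 and Trp53. WB1P tumours had the genotype WapCre;Brca1F/F;Trp53F/F, and WB1P-Myc tumours (WapCre;Brca1F/F;Trp53F/F;Myc) also carried a Myc transgene. Both models thus shared the deletions, which are aimed at epithelium and not at fibroblasts or macrophages, and the labels gave no age. Live single cells of 1 suspension per model were run through Drop-seq, which counts unique molecular identifiers (UMIs, 1 per captured RNA molecule) at the 3′ end of transcripts, and 4 droplet fractions of each suspension were sequenced. The labels number the count tables of each model as samples 1 to 4 and do not call them fractions. They are read here as the 4 fractions per sample that the study's methods describe. On that reading the fractions are technical repeats of 1 sample. No difference between the models or cell classes was therefore tested, and model cannot be told apart from the droplet run of its suspension. Intervals in parentheses after a level or a log2 ratio are 95% exact intervals and cover counting error only.

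Complement is a cascade of plasma and tissue proteins that tags cells and debris for clearance. C1q, built of the chains encoded by C1qa, C1qb and C1qc, recognises targets and activates the proteases C1r and C1s. Of these, C1s cleaves C4 and C2 to form the enzyme that cleaves C3. Serping1 encodes the C1 inhibitor, Cfb encodes factor B of the alternative route to C3 cleavage, and C3ar1 encodes the receptor for the C3a fragment. Much of the circulating pool is made by the liver, whereas C1q in tissues is known as a product of macrophages.

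After filtering, 4798 of 8000 listed barcodes were kept as cells, 1307 from WB1P tumours (median 1724 UMIs) and 3491 from WB1P-Myc tumours (median 2359 UMIs). Table totals ran from 256985 to 1918672 UMIs in the WB1P fractions and from 3814562 to 4960334 in the WB1P-Myc fractions. WB1P fraction 1 gave only 65 cells, of which 2 were macrophage-like and 2 fibroblast-like. These 4 cells held 1, 4 and 5 UMIs of C1qa, C1qb and C1qc, 1 UMI of Serping1 and none of the other members, and they are counted in the pooled values but not listed with the other fractions. Of all barcodes, 3 were listed in more than 1 of the 8 tables and 1 was kept in more than 1. Cells were clustered without any complement gene, and clusters were named from marker lists, which gave 1077 macrophage-like cells (377 WB1P, 700 WB1P-Myc) and 492 fibroblast-like cells (217 and 275). Levels of genes on these lists describe the classes and, since the lists named them, are no independent check, with Lyz2 at 11864 counts per 1e+06 UMIs of the class (CPM) in macrophage-like cells against 90.5 in fibroblast-like cells, Csf1r at 337 against 5.82, Col1a1 at 28.6 against 7172 and Dcn at 12.3 against 2983. The macrophage-like class also held 37 T or NK cell-like cells, and the fibroblast-like class 107 pericyte-like cells.

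The genes lie on 4 chromosomes (RefSeq annotation of GRCm38.p6). The C1q chains form a cluster on chromosome 4, with C1qb at chr4:136880126-136886200, C1qc at chr4:136889801-136892936 and C1qa at chr4:136895916-136898844. C4b (chr17:34728139-34743902) and Cfb (chr17:34856374-34862514) share a stretch of chromosome 17, and C3 lies farther along it at chr17:57203967-57228136. C3ar1 (chr6:122847140-122856157) and C1s1 (chr6:124530344-124542392) are on chromosome 6, and Serping1 is at chr2:84765360-84775444. Promoter windows of C1qb and C1qc, whose levels followed each other across cell types, and of C3, whose levels did not follow theirs, are shown for comparison. Each runs 5′ to 3′ on the minus strand of GRCm38.p6 from 250 bases before to 50 after a RefSeq start site, and capitals mark GAGGAA, the box bound by the myeloid factor PU.1, searched on both strands (TTCCTC is its reverse complement).
C1qb, chr4:136886151-136886450: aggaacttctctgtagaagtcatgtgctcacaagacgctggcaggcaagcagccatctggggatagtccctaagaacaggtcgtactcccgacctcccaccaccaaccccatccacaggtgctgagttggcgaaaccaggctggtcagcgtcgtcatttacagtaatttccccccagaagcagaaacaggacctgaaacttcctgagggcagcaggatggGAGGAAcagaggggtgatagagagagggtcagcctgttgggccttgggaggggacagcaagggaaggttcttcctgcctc
C1qc, chr4:136892865-136893164: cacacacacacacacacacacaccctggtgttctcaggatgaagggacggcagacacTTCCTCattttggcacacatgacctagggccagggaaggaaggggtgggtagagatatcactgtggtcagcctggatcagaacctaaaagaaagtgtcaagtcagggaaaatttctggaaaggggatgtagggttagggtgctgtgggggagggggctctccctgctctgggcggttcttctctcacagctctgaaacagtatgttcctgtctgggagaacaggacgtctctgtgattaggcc
C3, chr17:57228087-57228386: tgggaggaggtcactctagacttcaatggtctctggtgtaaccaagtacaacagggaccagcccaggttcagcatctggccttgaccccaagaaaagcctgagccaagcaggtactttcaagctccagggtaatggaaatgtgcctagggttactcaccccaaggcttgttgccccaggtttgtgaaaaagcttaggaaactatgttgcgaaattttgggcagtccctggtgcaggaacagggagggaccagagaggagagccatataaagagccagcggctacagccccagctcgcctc
C1qb and C1qc each held GAGGAA 1 time, 30 and 193 bases before the start site, and the C3 window held none. The windows of C3ar1, which like C1q was highest in macrophage-like cells, and of C1s1 held none either. The box was thus in some but not all windows of macrophage-side genes and in neither fibroblast-side gene searched. These few windows cannot show whether it goes with the division between the classes. The box occurred in 28.3% of 32851 promoter windows of this length, so these matches describe the windows and identify no binding site. TTCNNNGAA, the core bound by STAT factors, was in none of these windows and in 8.30% of all. The sequence is the reference strain's and not that of the FVB/n mice.

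The genes were divided sharply between the classes. They were chosen with earlier results of these data known, so the shares of all genes given here and below describe this division and do not test it. Over both models, 4 of 9 members were at least 2-fold higher in macrophage-like cells, the 3 C1q chains and C3ar1, against 18.6% of the 10334 genes with at least 20 UMIs. Another 4 of 9, C1s1, Serping1, C3 and C4b, were at least 2-fold higher in fibroblast-like cells, against 18.7% of genes. Cfb, the remaining member, was within 2-fold in the pooled cells (at least 2-fold higher in fibroblast-like cells without WB1P fraction 4, at a log2 ratio of -1.10). By model its ratio was -0.46 (-1.60 to 0.64) for WB1P, against -1.25 (-2.61 to 0.01) for WB1P-Myc, where 5 of 9 members were thus at least 2-fold higher in fibroblast-like cells, against 17.6% of genes. The median log2 ratio of macrophage-like over fibroblast-like cells was -0.86 over the 9 members and 0.05 over all genes tested. With 4 members far to each side, the member median is the ratio of Cfb alone and does not describe the set.

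**Figure D1:**
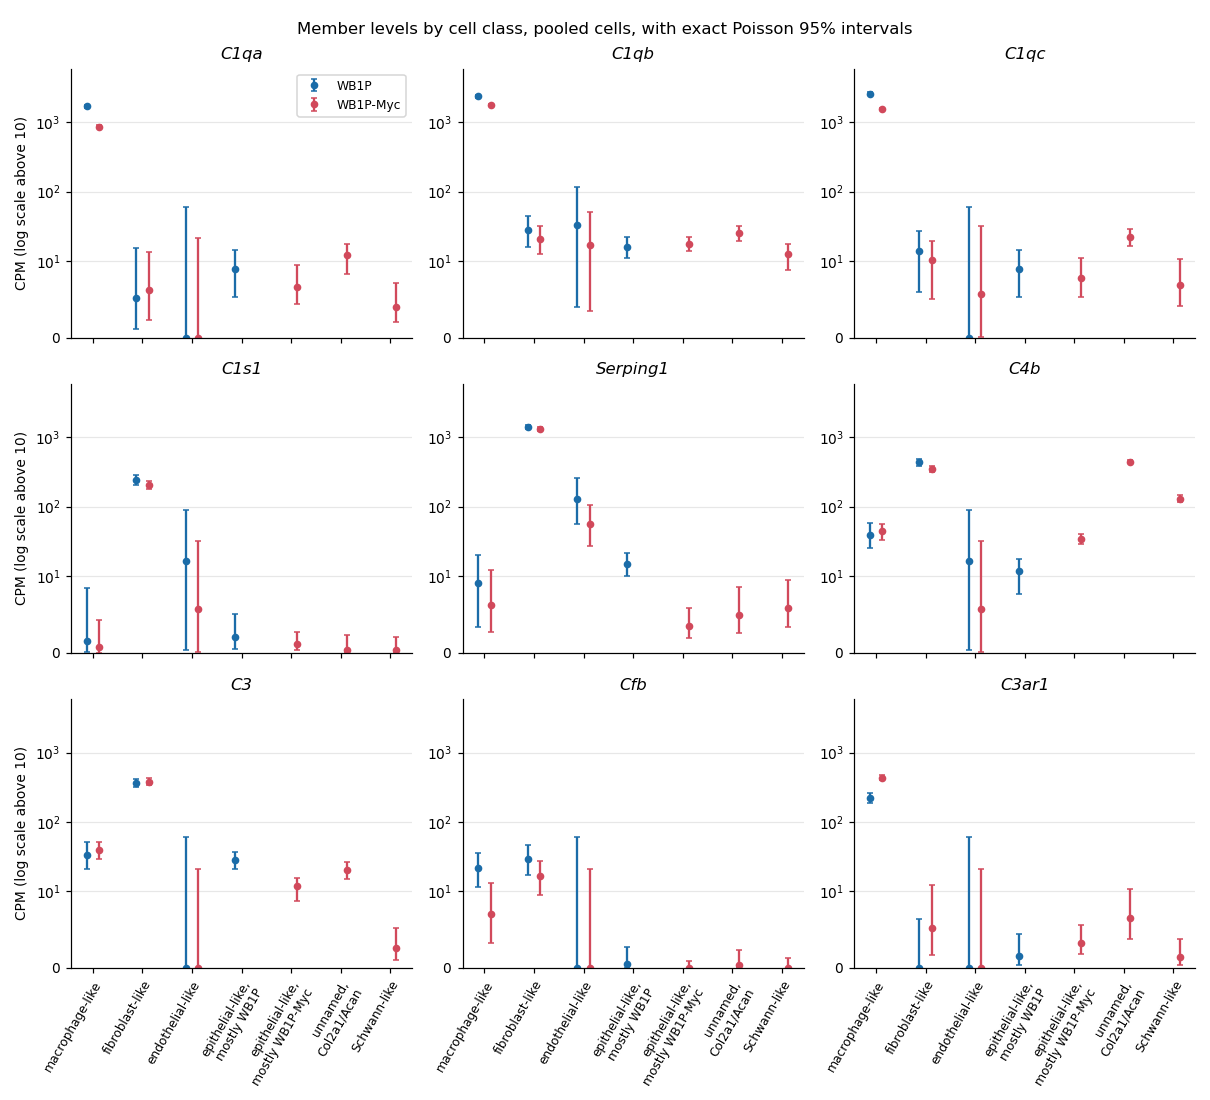
Level of each gene in CPM (vertical axis, logarithmic above 10) in each cell class, for WB1P (blue) and WB1P-Myc (red), over pooled cells of groups with at least 20 cells. Bars are exact Poisson 95% intervals. The C1q chains and C3ar1 were highest in macrophage-like cells, C1s1 and Serping1 peaked in fibroblast-like cells, and C4b was also high in the unnamed Col2a1/Acan cluster of WB1P-Myc tumours.

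C1q transcripts were those of macrophage-like cells. Macrophage-like cells had C1qa at 1154 CPM and fibroblast-like cells at 5.82 CPM, a log2 ratio of 7.63 (6.71 to 8.76). C1qb stood at 2002 against 23.3 CPM (log2 ratio 6.43, 5.96 to 6.94), and C1qc at 1908 against 11.6 CPM (7.36, 6.70 to 8.11). Of all C1q UMIs, macrophage-like cells held 97.9% in WB1P and 93.3% in WB1P-Myc tumours. The few C1q UMIs in fibroblast-like cells stood at 0.30% to 1.15% of the macrophage-like level in either model. The same relative level of 5 macrophage markers (Ptprc, Lyz2, Csf1r, Cd68 and Emr1, the symbol used in the tables for Adgre1) ran from 0% to 1.72% for WB1P and from 0.60% to 1.70% for WB1P-Myc, so C1q in fibroblast-like cells was within the range of genes they should lack. The pattern was the same in cells thinned to 600 UMIs each, which left out no macrophage-like or fibroblast-like cell. C1qb was then seen in 52.1% of macrophage-like and 1.22% of fibroblast-like cells, and without thinning in 63.1% (median depth 1484 UMIs) and 5.89% (median depth 2467.5). At 600 UMIs, 23.1% of macrophage-like cells held UMIs of all 3 chains and 34.6% of none, while no fibroblast-like cell held more than 1 chain and 97.97% held none.

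The level of each chain in the fractions is given for macrophage-like cells of WB1P fractions 2 to 4 and then of WB1P-Myc fractions 1 to 4. C1qb stood at 2089, 2417 and 2625 CPM in WB1P and at 1681, 2084, 1372 and 2061 CPM in WB1P-Myc. C1qc stood at 2233, 2480 and 2964 CPM and at 1542, 1745, 1280 and 1670 CPM. The WB1P and WB1P-Myc fractions did not overlap for either chain, although for C1qb the nearest fractions were 2089 and 2084 CPM. The share of all genes whose fractions separate between groups is not given, here or for the comparisons below. C1qa stood at 626, 1610 and 2625 CPM in WB1P and at 547, 897, 879 and 1197 CPM in WB1P-Myc. For this chain the models overlapped, and the WB1P fractions spanned a wider range than the gap between the pooled models (1711 and 870 CPM).

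C1qa did not keep step with its partner chains across fractions of the same suspension. Its highest WB1P fraction was 4.19 times the lowest, against a median of 1.25 times over 334 genes with at least 300 UMIs, of which 4, C1qa included, spread at least as far. In WB1P-Myc the ratio was 2.19, reached by 8 of 701 genes, C1qa included, with a median of 1.30. C1qb and C1qc spread by 1.26 and 1.33 times in WB1P and by 1.52 and 1.36 times in WB1P-Myc. As a share of the UMIs of the 3 chains over all listed barcodes, C1qa made up 19.8%, 13.7%, 24.6% and 32.0% in WB1P fractions 1 to 4 and 14.6%, 19.6%, 25.8% and 24.7% in WB1P-Myc fractions 1 to 4. In the MiSeq run with the same fraction numbers the shares were 15.1%, 19.5%, 17.8% and 13.3% in WB1P and 17.1%, 14.96%, 18.8% and 13.5% in WB1P-Myc. The MiSeq shares rest on 164 to 370 C1q UMIs each, and their intervals overlapped one another. WB1P fraction 4, the highest in the HiSeq tables (30.04% to 34.0%), was well below that in the MiSeq tables (9.41% to 18.0%). The part of library preparation or sequencing in this was not tested.

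**Figure D2:**
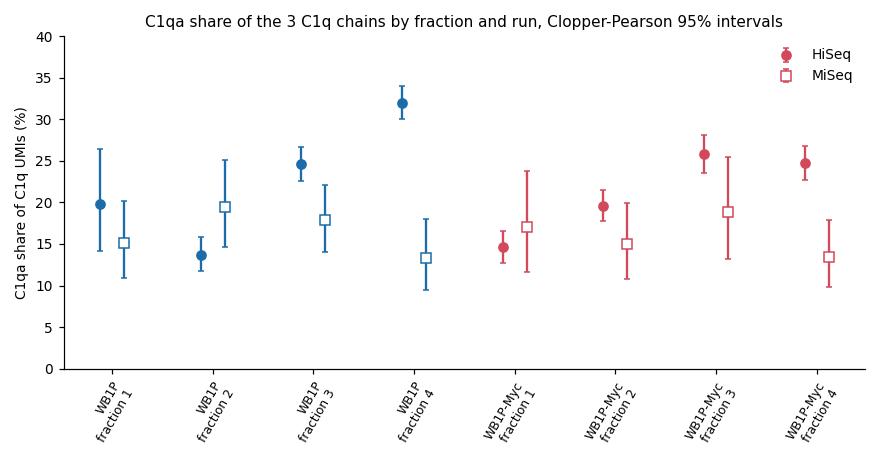
C1qa UMIs as a percentage of the UMIs of C1qa, C1qb and C1qc (vertical axis) over all listed barcodes of each droplet fraction, in the HiSeq tables (filled circles) and the MiSeq tables (open squares), with Clopper-Pearson 95% intervals. HiSeq shares ran from 13.7% to 32.0% and MiSeq shares from 13.3% to 19.5%.

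C3ar1 went with C1q. Macrophage-like cells had it at 360 CPM and fibroblast-like cells at 3.23 CPM, the latter from 5 UMIs (log2 ratio 6.80, 5.57 to 8.43), and macrophage-like cells held 98.0% of its WB1P and 93.4% of its WB1P-Myc UMIs. In macrophage-like cells it read 216, 235 and 215 CPM in WB1P fractions 2 to 4 and 547, 378, 389 and 401 CPM in WB1P-Myc fractions 1 to 4. All 4 WB1P-Myc fractions were above all 3 WB1P fractions, and how many of all genes separate in this way is not given. The receptor transcript and C3, whose product yields its ligand C3a, were thus highest in different classes.

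C1s1 and Serping1, the C1 protease and the C1 inhibitor, were fibroblast genes in both models. C1s1 stood at 219 CPM in fibroblast-like cells, against 1.02 CPM from 2 UMIs in macrophage-like cells. It read 236, 223 and 278 CPM in WB1P fractions 2 to 4 and 221, 156, 249 and 198 CPM in the WB1P-Myc fractions, which overlapped. Because C1s1 and C1s2 are near-identical copies, the counting may have split reads between them. Serping1 stood at 1365 against 7.16 CPM (log2 ratio -7.58, -8.45 to -6.83). Its fractions read 1281, 1411 and 1635 CPM in WB1P and 1938, 1107, 1209 and 1122 CPM in WB1P-Myc, again overlapping. Fibroblast-like cells held 95.9% and 95.7% of C1s1 UMIs and 94.97% and 95.46% of Serping1 UMIs in WB1P and WB1P-Myc. At 600 UMIs per cell Serping1 was seen in 47.8% of fibroblast-like and 0.37% of macrophage-like cells. The next highest class was endothelial-like cells, where Serping1 stood at 76.0 CPM (45.0 to 120) from 18 UMIs in 110 cells.

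**Figure D3:**
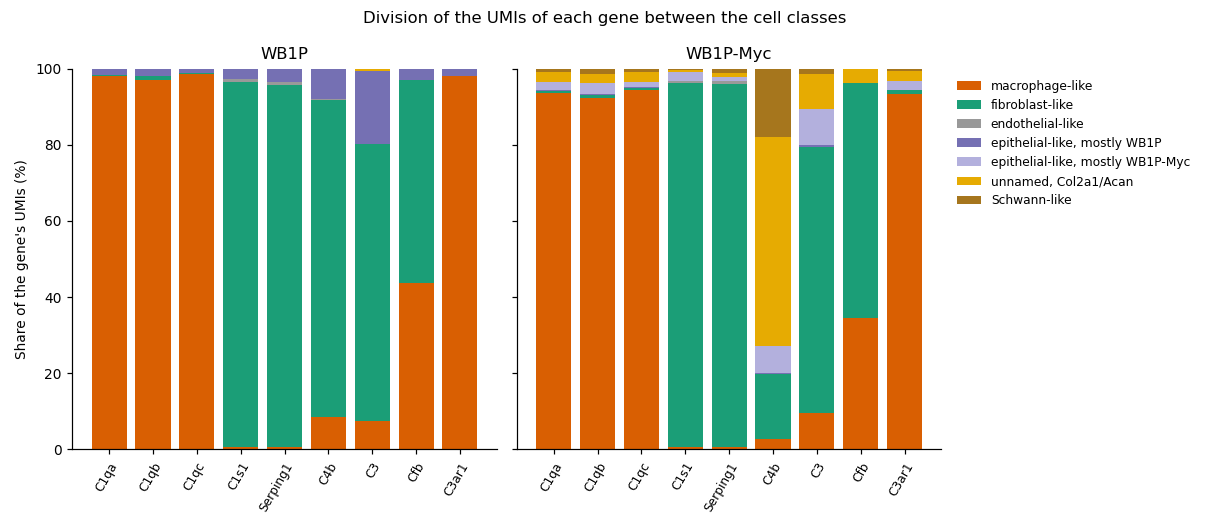
Share of the UMIs of each gene (vertical axis, percent) held by each cell class in WB1P (left) and WB1P-Myc (right). Macrophage-like cells (orange) held nearly all UMIs of the C1q chains and C3ar1, fibroblast-like cells (green) those of C1s1 and Serping1, and for C4b the fibroblast share was 83.3% in WB1P and 16.9% in WB1P-Myc.

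C3 and C4b were highest in fibroblast-like cells of the 2 classes but less exclusively so. Fibroblast-like cells had C3 at 375 CPM, against 36.8 CPM in macrophage-like cells (log2 ratio -3.35), and C4b at 384 against 42.4 CPM (-3.18). In fibroblast-like cells C3 read 369, 237 and 533 CPM in WB1P fractions 2 to 4 and 748, 198, 367 and 251 CPM in WB1P-Myc fractions 1 to 4, and C4b read 415, 320 and 616 CPM and then 415, 281, 442 and 273 CPM. For both genes the models overlapped, and the highest and the lowest C3 fraction were both WB1P-Myc. In macrophage-like cells, C3 amounted to 9.09% and 10.1% of the fibroblast-like level in WB1P and WB1P-Myc, and C4b to 9.01% and 12.5%. The fibroblast markers Col1a1, Col1a2, Col3a1 and Dcn in the same macrophage-like cells amounted to 0.25% to 0.74% of theirs, so C3 and C4b were above that level. In WB1P-Myc tumours fibroblast-like cells held 16.9% of C4b UMIs and the unnamed Col2a1/Acan cluster 54.8%. Fibroblast markers therefore cannot gauge the C4b RNA picked up from other cells there. The C4b UMIs of WB1P macrophage-like cells came almost wholly from fraction 4, with 23 of 26 UMIs (95.1 CPM, against 16.6 and 0 CPM in fractions 2 and 3). The C4b of WB1P-Myc macrophage-like cells read 32.7, 26.6, 83.3 and 34.0 CPM in fractions 1 to 4. C3 in macrophage-like cells ran from 16.8 to 53.7 CPM for WB1P and 10.2 to 61.7 CPM for WB1P-Myc.

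Outside these classes, C3 and C4b parted. Fibroblast-like cells held 72.7% of C3 UMIs in WB1P and 69.8% in WB1P-Myc, and the largest other share was 19.1% in the epithelial-like cells of WB1P, at 27.8 CPM. Fibroblast-like cells held 83.3% of C4b UMIs in WB1P tumours, at 436 CPM, but 16.9% in WB1P-Myc tumours, at 352 CPM. Such shares depend on how many cells of each class were caught. In WB1P-Myc tumours other classes held most C4b UMIs. There, 54.8% of C4b UMIs lay in an unnamed cluster led by the cartilage genes Col2a1, Acan and Col11a1 (1108 cells, of which 1091 were WB1P-Myc and which also led for the glial markers Sox10 and S100b), and 18.0% lay in 505 Schwann-like cells, all WB1P-Myc. In the WB1P-Myc cells of the unnamed cluster C4b stood at 447 CPM (421 to 474), beside 352 CPM (316 to 392) in WB1P-Myc fibroblast-like cells. By fraction the cluster read 542, 477, 411 and 344 CPM, which overlapped the fibroblast-like fractions. In Schwann-like cells C4b was at 131 CPM (118 to 145) and in the epithelial-like cells of WB1P-Myc at 34.0 CPM. Serping1 and C1s1 were at 4.88 and 0.41 CPM in the same WB1P-Myc cells of the unnamed cluster, which is 0.37% and 0.20% of their fibroblast-like level, while the 4 fibroblast markers stood at 0.86% to 6.17% of theirs there. C4b in that cluster was at 127% of its fibroblast-like level. The 17 WB1P cells of the cluster held no C4b UMI. In cells thinned to 600 UMIs, C4b was seen in 18.8% of the unnamed cluster and 16.7% of the fibroblast-like class, against 8.51% of the Schwann-like and 2.32% of the macrophage-like class. The gene C4a is a near-identical copy, so reads may have been split between C4a and C4b.

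Cfb was scarce, with 58 UMIs in all cells, and divided between macrophage-like and fibroblast-like cells. It was at 11.8 CPM in the former and at 21.3 CPM in the latter (log2 ratio -0.86, -1.69 to -0.05), and the classes held 43.8% and 53.1% of its WB1P UMIs and 34.6% and 61.5% of its WB1P-Myc UMIs. A single fraction carried much of it. WB1P fraction 4 gave 12 of the 14 UMIs in WB1P macrophage-like cells and 14 of the 17 in WB1P fibroblast-like cells, whereas each other WB1P fraction gave 0 to 3. In WB1P-Myc the macrophage-like fractions held 2, 2, 3 and 2 UMIs and the fibroblast-like fractions 1, 5, 9 and 1. WB1P fraction 4 thus had the highest levels of Cfb, C3, C4b and all 3 C1q chains among the macrophage-like WB1P fractions with over 2 cells, although C3ar1 there was no higher than in fractions 2 and 3.

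**Figure D4:**
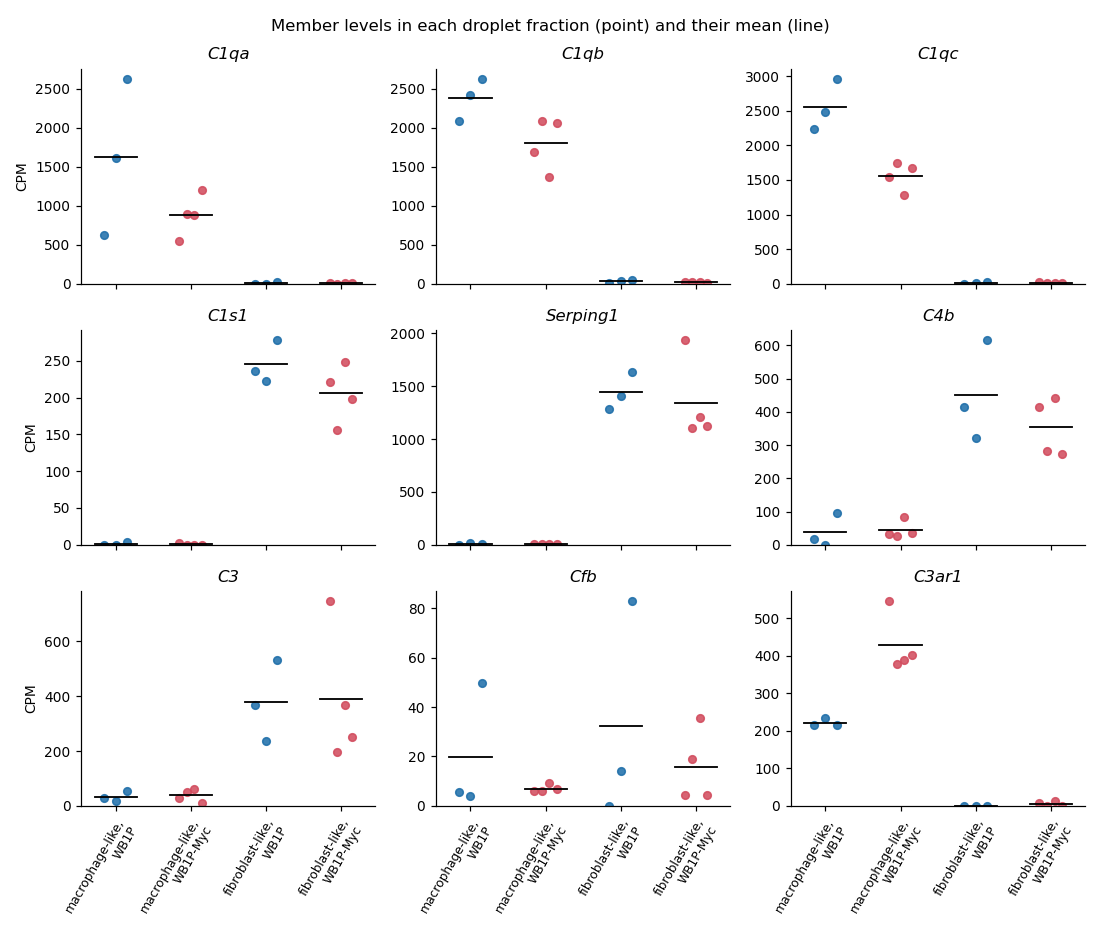
Level of each gene in CPM (vertical axes start at 0) in macrophage-like and fibroblast-like cells of each droplet fraction with at least 10 such cells (points), with the mean over fractions (line), for WB1P (blue) and WB1P-Myc (red). C3ar1, C1qb and C1qc of macrophage-like cells did not overlap between the models, whereas C1qa ran from 626 to 2625 CPM within WB1P. The share of all genes without overlap is not given.

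The second comparison set the models against each other within each class. In macrophage-like cells 1 of the 7 members with at least 20 UMIs differed at least 2-fold, against 13.9% of 7990 genes (C1s1 and Serping1 had fewer). That member was Cfb, at 6.96 CPM in WB1P-Myc against 21.2 in WB1P (log2 ratio of WB1P-Myc over WB1P -1.60, -2.99 to -0.29), and it rests on WB1P fraction 4, without which too few UMIs remained for a ratio. C3ar1 was higher in WB1P-Myc at 430 against 222 CPM (log2 ratio 0.95, 0.69 to 1.22). The C1q chains were lower in WB1P-Myc, C1qa at 870 against 1711 CPM (-0.98, -1.10 to -0.86), C1qb at 1796 against 2404 CPM (-0.42, -0.51 to -0.33) and C1qc at 1558 against 2592 CPM (-0.73, -0.83 to -0.64). Receptor and C1q thus differed in opposite directions between the models. For C3ar1, C1qb and C1qc the fractions, technical repeats of 1 suspension per model, did not overlap. The share of all genes that separate in this way is not given here. The median log2 ratio of all genes tested was 0.16 and that of the members -0.42. Scaling by TMM or by DESeq2 size factors moved every ratio by -0.16 in this class, which changed no direction of C3ar1 or the C1q chains but took C1qa past 2-fold (-1.13 under TMM). The C1qa ratio was -0.44 without WB1P fraction 4 and -1.28 without WB1P fraction 2. In the MiSeq run the ratios were -0.63 for C1qa, -0.08 for C1qb with an interval that included 0, -0.60 for C1qc and 1.16 for C3ar1, so the lower C1qb of WB1P-Myc was not seen in that run. C3 stood at 38.6 CPM in WB1P-Myc against 33.2 in WB1P, and C4b at 44.1 against 39.3 CPM, within counting error, but both ratios rest on single fractions. That of C4b was 2.62 (1.00 to 4.94) without WB1P fraction 4, -0.12 without WB1P fraction 2, -0.48 without WB1P fraction 3 and -0.34 without WB1P-Myc fraction 3. That of C3, 0.22 with all fractions, was 0.85 without WB1P fraction 4, -0.14 without WB1P fraction 3 and -0.10 without WB1P-Myc fraction 3. The number of members past 2-fold was 2 without WB1P fraction 2, 3 without WB1P fraction 3 (Cfb, C1qa and C3ar1, the last at 1.00), and 2 without WB1P-Myc fraction 2 or fraction 4.

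The subsets of the macrophage-like class differed between the models in number, and C1q differed within them. The 37 T or NK cell-like cells held 1 UMI of C1qc and none of C1qa, C1qb or C3ar1, while each other subset carried all 3 chains. C1qb was highest in the subset led by Vcam1, Ctsd and Pld3 (219 cells) at 3133 CPM, followed by 2358 CPM in the subset led by Cd72, Ccr2 and Tmem176b (251 cells) and 1711 CPM in that led by Mgl2, Il1r2 and Dcstamp (198 cells). It was 1468 CPM in the subset led by Mmp12 and Arg1 (87 cells), 1364 CPM in that led by Racgap1 and Ckap2l (66 cells) and 1262 CPM in that led by Ccl8, F13a1 and Pf4 (219 cells). Counting intervals of these last 3 overlapped. C3ar1 followed another order, at 529 CPM (467 to 598) in the Vcam1 subset, 430 CPM (364 to 505) in the Ccl8 subset and 136 CPM (103 to 177) in the Mgl2 subset. The Vcam1 subset held 30 WB1P and 189 WB1P-Myc cells, and the Mgl2 subset 127 and 71. The part of these numbers in the C3ar1 difference between the models was not tested. Within the Vcam1 subset C1qb was 3334 CPM (2939 to 3766) for WB1P against 3096 CPM (2929 to 3270) for WB1P-Myc, with overlapping intervals. Within the Ccl8 subset it was 2802 CPM in WB1P (40 cells) and 981 CPM in WB1P-Myc (179 cells), and within the Mgl2 subset 2141 CPM (127 cells) and 727 CPM (71 cells). The lower C1qb of WB1P-Myc in the HiSeq tables was therefore seen in some subsets more than in others, a difference between subsets that was not tested. C4b reached 108 CPM (76.6 to 149) in the Ccl8 subset and 15.3 to 46.9 CPM in the other subsets called by their top genes. Only the T or NK cell-like subset could be named from the marker lists. The Cd72 and Mgl2 subsets led for the monocyte marker Plac8 alone, so the class may hold other myeloid cells besides macrophages.

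In fibroblast-like cells 0 of the 6 members with at least 20 UMIs differed 2-fold between the models, against 9.72% of 7532 genes (C1qa, C1qc and C3ar1 had fewer). C3 stood at 381 CPM in WB1P-Myc against 366 in WB1P (log2 ratio 0.06, -0.19 to 0.31), C4b at 352 and 436 CPM (-0.31, -0.55 to -0.07), C1s1 at 205 and 242 CPM (-0.24, -0.56 to 0.08) and Serping1 at 1328 and 1427 CPM (-0.10, -0.23 to 0.02). Cfb stood at 16.6 and 29.2 CPM (-0.82, -1.90 to 0.26). It passed 2-fold without WB1P fraction 2 (-1.41), without WB1P fraction 3 (-1.203) or without WB1P-Myc fraction 3 (-1.57), and without WB1P fraction 4 too few UMIs remained for a ratio. The median ratio was -0.27 over the members and 0.08 over all genes tested. C3 changed sign without WB1P fraction 3 (-0.21) or WB1P-Myc fraction 1 (-0.43), so its direction rests on single fractions.

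Within the fibroblasts C3, C4b, C1s1 and Serping1 were highest in one subset. A second clustering of the fibroblast-like cells, again without complement genes, separated 159 iCAF-like cells (inflammatory cancer-associated fibroblasts, led by Sfrp4, Ly6c1, Efemp1 and Clec3b) from 132 myCAF-like cells (myofibroblastic, led by Spp1, Igfbp2 and Mgll and named from Tagln, Lrrc15, Tnc, Col8a1 and Col11a1). The iCAF name came from Clec3b, Pi16, Dpt, Has1, Ly6c1, Ly6a and Col14a1, while Il6, Il33 and Mfap5 of that list did not lead. The study's discussion cites work in which Pi16+ fibroblasts overlapped with CD26+ fibroblasts of the mammary gland. The markers that led therefore do not tell iCAFs from such cells, and an inflammatory character of the subset was not tested. Of the myCAF list, Acta2, Myl9, Thbs2, Postn and Cthrc1 did not lead. Of the 6 members with at least 20 UMIs, 5 were at least 2-fold higher in iCAF-like cells, against 9.93% of 5798 genes. The sixth, C1qb, stood at 26.9 against 19.9 CPM, and C1qa, C1qc and C3ar1 had under 20 UMIs. The median log2 ratio was 2.53 over the members tested and -0.11 over all genes tested. The study had already probed C3 protein in its blot of iCAF and myCAF markers. It also named CFB among the genes related to these subsets, so a link of C3 and Cfb to them is not new here.

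C4b and C3 showed the widest gaps. C4b stood at 1057 CPM in iCAF-like and 33.8 CPM in myCAF-like cells (log2 ratio 4.96, 4.27 to 5.76), and C3 at 1130 against 59.7 CPM (4.24, 3.71 to 4.83). By fraction, C4b in iCAF-like cells read 1775, 1596 and 2263 CPM in WB1P fractions 2 to 4 and 893, 795, 822 and 633 CPM in WB1P-Myc fractions 1 to 4. In myCAF-like cells it read 10.3, 28.2 and 16.2 CPM and then 0, 50.1, 66.0 and 69.1 CPM. C3 in iCAF-like cells read 1839, 998 and 2026 CPM and then 1671, 684, 679 and 802 CPM, against 10.3, 75.3 and 32.4 CPM and then 137, 50.1, 132 and 0 CPM in myCAF-like cells. Every iCAF-like fraction was above every myCAF-like fraction for both genes, and how many of all genes separate in this way is not given. Taken by model, the log2 ratio of C4b was 6.65 (5.40 to 8.29) for WB1P, against 3.99 (3.16 to 4.96) for WB1P-Myc, and that of C3 was 5.29 (4.41 to 6.32) and 3.61 (2.95 to 4.36). The pooled C4b ratio ran from 3.44, with cells named by marker levels in place of clusters, to 6.38, with cells thinned to 600 UMIs, and that of C3 from 3.91 to 5.42 over the same 20 alternatives.

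C1s1 and Serping1 showed the same order with smaller gaps. C1s1 stood at 535 against 75.6 CPM (2.82, 2.32 to 3.36), its iCAF-like fractions running from 414 to 919 CPM and its myCAF-like fractions from 22.8 to 134 CPM. Serping1 stood at 2724 against 824 CPM (1.72, 1.56 to 1.89). Its fractions ran from 1761 to 3736 CPM and from 568 to 1026 CPM without overlap, and how many of all genes do so is not given. Unlike C3 and C4b, Serping1 therefore remained a well-detected gene of myCAF-like cells. Cfb stood at 47.0 against 9.95 CPM (2.24, 0.79 to 4.00), with 21 UMIs in iCAF-like and 5 in myCAF-like cells.

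**Figure D5:**
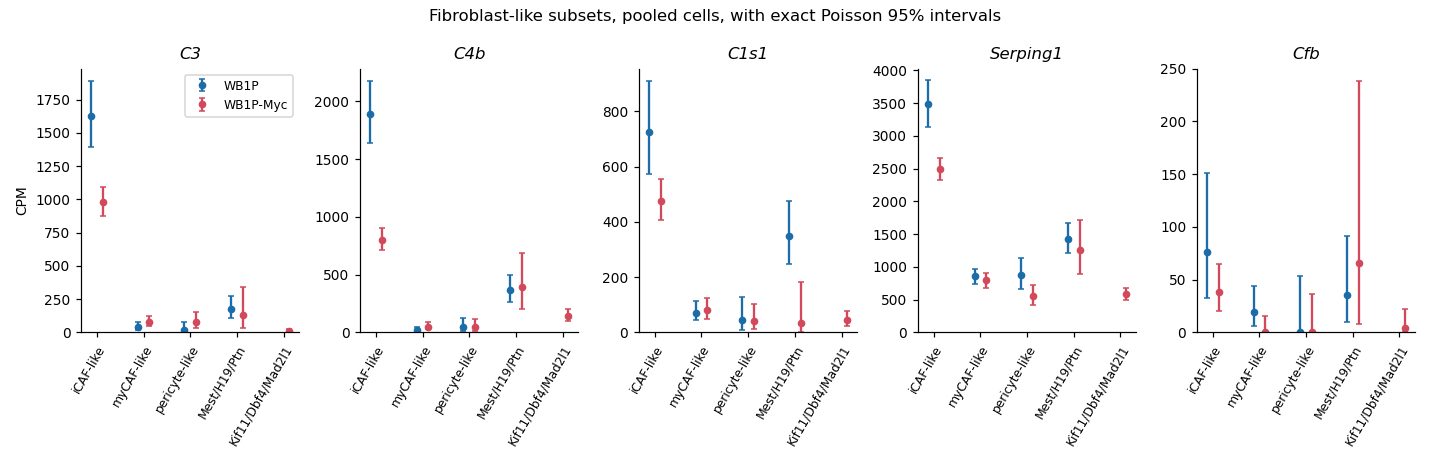
Level in CPM (vertical axes start at 0) of the 5 fibroblast-side genes in each subset of the fibroblast-like class, for WB1P (blue) and WB1P-Myc (red), over pooled cells of groups with at least 10 cells, with exact Poisson 95% intervals. C3 and C4b were concentrated in iCAF-like cells, C4b at 1892 CPM in WB1P and 801 CPM in WB1P-Myc, whereas Serping1 was at 552 CPM or more in every subset shown.

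The remaining fibroblast subsets lay between or beside these. A subset led by Mest, H19 and Ptn (50 cells, 40 of them WB1P) had C3 at 169, C4b at 373, C1s1 at 282 and Serping1 at 1387 CPM. Pericyte-like cells had C3 at 53.0, C4b at 47.1, C1s1 at 41.2 and Serping1 at 683 CPM with no Cfb UMI, and the subset led by Kif11, Dbf4 and Mad2l1 (44 cells), in which the Schwann cell markers Sox10 and Mbp also led, had C3 at 45.4, C4b at 154, C1s1 at 52.3 and Serping1 at 590 CPM. The pericyte markers summed to 778 CPM in WB1P and 809 CPM in WB1P-Myc over the fibroblast-like class. Without the pericyte-like cells, 5 members in place of 4 were at least 2-fold higher in fibroblast-like than in macrophage-like cells, the fifth being Cfb.

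Within iCAF-like cells C4b also differed between the models. It stood at 1892 CPM in WB1P (49 cells) and 801 CPM in WB1P-Myc (110 cells), a log2 ratio of WB1P-Myc over WB1P of -1.24 (-1.51 to -0.97), and the lowest WB1P fraction (1596 CPM) was above the highest WB1P-Myc fraction (893 CPM). The share of all genes whose iCAF-like fractions separate by model is not given here. This comparison was not rerun under the alternatives. C3 stood at 1625 and 979 CPM (-0.73, -1.001 to -0.46), but WB1P-Myc fraction 1 at 1671 CPM lay within the WB1P range. C1s1 stood at 726 and 476 CPM (-0.61, -1.01 to -0.20), and Serping1 at 3479 and 2493 CPM (-0.48, -0.66 to -0.30), with overlapping fractions for both. With Cfb (-1.01, -2.39 to 0.47), 2 of the 5 members with at least 20 UMIs passed 2-fold, against 17.3% of 3397 genes. Cfb counts there through WB1P fraction 4, which gave 7 of its 8 WB1P UMIs. The medians were -0.73 over the members and 0.11 over all genes tested. WB1P-Myc gave more iCAF-like cells and fewer myCAF-like cells (110 and 54) than WB1P (49 and 78).

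The other genes of the pathway, a list of 41, were also divided, though some were highest in neither class. Of these, 10 were not among the genes kept, 15 had under 50 UMIs and 16 had at least 50. Of the 17 with at least 20 UMIs over both classes, 7 were at least 2-fold higher in macrophage-like cells (18.6% of all genes) and 9 in fibroblast-like cells (18.7%), while Cr1l, a membrane regulator, stood at 54.7 and 65.3 CPM. On the macrophage side were Cfp, which encodes properdin, the stabiliser of the alternative convertase, at 536 CPM, the C5a receptor C5ar1 at 209 CPM, and the complement receptor integrins Itgam, Itgb2 and Itgax at 393, 162 and 96.7 CPM. On the fibroblast side were the C1r genes C1ra at 277 and C1rb at 50.4 CPM, C1s2 at 101 CPM, C2 at 50.4 CPM with no UMI in macrophage-like cells, the scavenger lectin Colec12 at 171 CPM and the membrane regulator Cd55 at 57.5 CPM. C1ra and C1rb are near-identical copies. All C1q chains were thus highest in one class and the C1r and C1s genes in the other. Clu was highest in epithelial-like cells of WB1P at 662 CPM, and Cd59a and Cfi in the unnamed cluster at 286 and 39.1 CPM.

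In the iCAF-like over myCAF-like comparison, C1ra (log2 ratio 2.90), C1rb (2.88), C1s2 (2.88) and Cd55 (4.44) were at least 2-fold higher (9.93% of all genes) and Cd59a, which blocks the membrane attack complex, was lower (-4.23, 20.1 against 378 CPM, against 12.2% of all genes lower), of 10 other pathway genes with at least 20 UMIs. The membrane regulators Cd55 and Cd59a therefore had opposite orders. Between the models, 2 of 13 other pathway genes passed 2-fold in macrophage-like cells (Cd59a at 1.203 and Fcna at -1.03), a share close to the 13.9% of all genes. In fibroblast-like cells 3 of 10 passed (among them Cd55 at 1.06 and Clu at -1.16), against 9.72% of all genes.

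Genes whose pattern was most like that of a member were sought over 25 groups, each a class or subset of 1 model with at least 20 cells, by the Pearson correlation of log2(CPM + 10). The groups share suspensions and depth, and subsets are parts of their classes, so the correlations are a description. Outside the pathway, C1qa was most like Pld4, Spi1, Ms4a4a, Fcgr3 and Aif1, each at 0.98, beside 0.99 for C1qc and 0.98 for C1qb. Spi1 encodes PU.1. C3 was most like Sfrp4 (0.86), Gsn (0.83), Mnda (0.83), Col14a1 (0.80) and Htra3 (0.80), and C4b like Sema3c (0.82), Ptx3 (0.80), Gpc3 (0.79), Ugdh (0.79) and Chl1 (0.77). The correlation between C3 and C4b was 0.69, and C3 with C1qa 0.05.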

How the data were processed

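Drop-seq libraries of end-stage mammary tumours were analysed as raw UMI counts per gene and barcode, which the authors deposited after processing with dropseq-tools. The labels' processing notes name the mm10 build and Scanpy, and the aligner and annotation are not given in the sources used here. The 8 HiSeq tables, of 1000 barcodes each, were used for every result and the 8 MiSeq tables as a repeat run. The study reports that its Drop-seq libraries went to both platforms. No source used here says if HiSeq and MiSeq tables with the same fraction number come from the same library. The study names 2 mice per model in a legend, and pooling is not stated. The merged series table was left out.

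Barcodes with 450 to 4000 genes and under 20% mitochondrial UMIs were kept, and genes had to be seen in at least 3 barcodes with 200 or more genes. Doublets were limited only by the sort for single cells and the cap of 4000 genes, and no caller was run. Each cell was scaled to 10000 UMIs on a log scale, and all 50 pathway genes were left out before 30 principal components, 20 neighbours and Leiden clustering at resolution 0.3 (scanpy 1.11.5, Python 3.11.15). The macrophage-like and fibroblast-like cells were each re-clustered (40 components, resolution 0.6), since at 0.3 pericytes did not separate. A cluster was named from a fixed marker list when at least 3 markers led it (10% of cells and 2-fold over the rest) with 1 among its top 10 genes, or when at least 5 led it, the latter set after the clusters were seen. CAF names rest on these markers and not on the study's signatures. Adgre1 is listed as Emr1.

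Levels are UMIs of a gene per 1e+06 UMIs of the group (CPM). CPM intervals are exact Poisson, shares Clopper-Pearson and log2 ratios exact conditional binomial, at 95%. A gene counted as different at 2-fold or more with at least 20 UMIs over both sides, mitochondrial genes left out. No p-value was computed, since each model is 1 sample. Ratios were recomputed with edgeR 4.0.16 TMM and DESeq2 1.42.0 size factors (R 4.3.3), and the ratio code was tested on simulated data. The text names the 9 members, other pathway genes with at least 50 UMIs (Fcna, with fewer, was named after its values were seen), marker genes as comparators, and the 5 genes most like C1qa, C3 and C4b among those with at least 200 UMIs. The members and lists were chosen with earlier results of these data known. RefSeq promoter windows were searched for C1qb, C1qc, C3, C3ar1 and C1s1, and those of the other members were not used here. Some other genes are not reported here.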

Additional observations from a re-analysis of the deposited data

Results flagged for a closer look

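The groups screened were a member with at least 20 UMIs in macrophage-like, fibroblast-like or unnamed Col2a1/Acan cells of 1 model. In 4 of 26 groups 1 droplet fraction stood apart from the other 3 of its model by Dixon's criterion at 95%. Chance meets this in about 1 of 20 groups only for normal values of equal spread. Cell numbers differed between fractions and the groups share fractions, so the 4 groups are flagged and not read as an excess. C3ar1 in macrophage-like cells was 0 CPM in WB1P fraction 1, which held 2 such cells, against 215 to 235 CPM in the others. In WB1P-Myc, C3ar1 in macrophage-like cells was 547 CPM in fraction 1 against 378 to 401 CPM, C4b in macrophage-like cells was 83.3 CPM in fraction 3 against 26.6 to 34.0 CPM, and Serping1 in fibroblast-like cells was 1938 CPM in fraction 1 against 1107 to 1209 CPM.

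Barcodes with over 4000 genes were left out of every comparison, and all 9 members had UMIs in them in both models. In the 40 such barcodes of WB1P, C1qa was at 10.0, C1qb at 17.5, C1qc at 15.7, C3 at 42.6, C4b at 8.77, C1s1 at 2.51 and Serping1 at 10.6 CPM, with 3 UMIs of C3ar1 and 1 of Cfb. In the 134 such barcodes of WB1P-Myc, C1qa was at 27.9, C1qb at 34.7, C1qc at 28.4, C3 at 25.0, C4b at 105, C1s1 at 1.34, Serping1 at 10.5 and C3ar1 at 7.60 CPM, with 3 UMIs of Cfb. Whether these are doublets was not tested.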

How the results depend on the processing

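Between the models no paired analysis was possible because each model is 1 suspension. The cell classes and fibroblast subsets come from the same fractions, but their ratios were computed on pooled cells and not paired by fraction. No result comes from a test. No ratio of a member changed from 2-fold in one direction to 2-fold in the other under the alternatives run. The count of members 2-fold higher in macrophage-like cells was 4 in all 20 alternatives, that in fibroblast-like cells 4 or 5, and that in iCAF-like cells 4 to 6. The iCAF count had no value with a minimum of 200 genes, where no myCAF-like cluster formed. The count of members differing between the models in macrophage-like cells, 1 in the values reported, was 2 with the 2000 most variable genes, at resolution 0.6, with cells named by marker levels and under TMM or DESeq2 scaling, and 0 with cells thinned to 600 UMIs. It ran from 1 to 3 when 1 fraction was left out. In fibroblast-like cells the count of 0 became 1 in the MiSeq run and 4 (C4b, C1s1 and Cfb lower in WB1P-Myc among them) with cells named by marker levels, and ran from 0 to 1 when 1 fraction was left out. The causes were not tested, except that C1qa and C3ar1 lay near 2-fold. Leaving out the T or NK cell-like or the pericyte-like subset was chosen after seeing the data. Depth limits Cfb, with 58 UMIs, and the subset values by fraction.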
